A study of Mus musculus with 3 samples.

Results

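AMPA receptor auxiliary subunits are membrane proteins that ride with the glutamate-gated AMPA channel, and 10 of their genes were followed in RNA sequencing of mouse hippocampal neurons. The 10 genes were listed by name: the TARP genes Cacng2, Cacng3, Cacng4, Cacng7 and Cacng8, the cornichon genes Cnih2 and Cnih3, the Shisa genes Shisa9 and Shisa6, and Gsg1l. All 10 were found among 47593 gene rows. The 3 libraries, replicates 1 to 3 of a single group, were made from wild-type primary neurons of the hippocampus. The culture medium was Neurobasal supplemented with B27 (10%) plus GlutaMAX (1%), and the incubator held 5% CO2 and 37 °C. Before harvest the neurons received fresh medium with B27 and penicillin-streptomycin, for 24 h per the series design. The design also names neurons given apoE particles, which were not analysed here, so the data hold no comparison of treatments. Separate animals or cultures are not mentioned in the labels, so p-values and SDs measure the spread between these samples only, which may be technical.

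AMPA receptors carry most fast excitatory transmission in the hippocampus, and their pore is built from the subunits encoded by Gria1 to Gria4. TARPs (transmembrane AMPA receptor regulatory proteins) help bring the receptor to the surface, anchor it at the synapse and slow its closing; cornichons assist its export from the endoplasmic reticulum and also slow its kinetics. The Shisa proteins, also called CKAMPs, and GSG1L are further partners that change desensitization and recovery of the channel.

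The last coding bases are shown because TARPs of type I reach the synapse through this end, which binds the PDZ domains of postsynaptic scaffolds such as the product of Dlg4. Each line gives the final 30 bases of the longest complete coding sequence of the gene in GENCODE M21 (GRCm38), 5′ to 3′, with the last 4 codons in capitals and the stop codon after them.
Cacng2: acagccaaccgccggACCACGCCCGTAtga
Cacng3: ccggccaacagacgtACCACGCCTGTCtga
Cacng4: atgctgaaccggcggACGACTCCCGTGtga
Cacng8: acgctcaacaggaaaACCACGCCCGTGtag
Cacng7: catctccacatctccACTTCGCCGTGCtga
Cnih2: agtatggtttatacgTTGGTGAGCTTCtaa
Cnih3: tgcatgatttacaccTTAGTGAGCTCCtaa
Shisa9: actaacagcaaaacaGAAGTGACTGTCtga
Shisa6: acagccagcaagactGAAGTGACCGTGtga
Gsg1l: cagtgctgggtcctgGGGCACTGGGTGtga
The type I genes Cacng2, Cacng3, Cacng4 and Cacng8 encode the same 4 residues at this end, each with a different codon string. Against Cacng2, the 12 capital bases differed at 2 bases in Cacng3, 3 in Cacng4 and 1 in Cacng8, but at 6 in Cacng7, a type II TARP whose last 4 residues are not shared by any other member. Shisa9 and Shisa6 share their last 4 residues as well. Other annotated transcripts end differently: Cnih3 has 4 distinct coding ends, Cacng8 has 3, and Shisa9 and Shisa6 have 2 each. Over the aligned part of the translated sequences Cacng2 and Cacng3 were identical at 75.9% of 315 positions, and Cacng4 and Cacng8 at 65.3% of 326. Unaligned positions are left out of these values, as in Cacng8 with 423 codons and Cnih3 with 187. Cacng7 was identical to the type I members at 30.9% to 34.5%. Cnih2 and Cnih3 were the closest pair, at 81.3% of 160 positions, whereas Shisa9 and Shisa6 matched at 40.5% of 393.

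All 10 genes were expressed at 1 CPM (count per 1000000) or more in each library, a limit passed by 29.4% of all gene rows (28.7% in recovered reads). The deposited values are on a log2 scale that pulls libraries of a gene together, so the whole reads behind them were recovered, and levels are given from these reads as CPM per kilobase of annotated exon, mean ± SD (n = 3). Together the 10 genes held 21437, 20581 and 22388 reads in replicates 1, 2 and 3, of 18683959 to 18885652 reads per library, a share of 0.114% ± 0.004. Their median level was 20.2 CPM per kilobase, against 6.65 over the 12476 protein-coding genes detected. Of the marker lists, 8 of 8 pan-neuronal, 6 of 6 excitatory, 5 of 6 inhibitory, 5 of 6 astrocyte and 6 of 7 oligodendrocyte lineage genes were detected, and 0 of 6 microglial and 0 of 4 endothelial genes. Pvalb, Gjb6 and Mag were the undetected genes of the neuronal and glial lists, and the endothelial gene Cldn5 had 0 reads. Of all reads the pan-neuronal list held 0.647%, the excitatory 0.103% and the inhibitory 0.0847%. The astrocyte list held 0.158%, with Slc1a3 at 980 CPM, and the oligodendrocyte lineage list 0.0292%, so glial RNA was present beside neuronal RNA. In such bulk RNA fewer cells of a type and less RNA per cell cannot be told apart, and which cells carried each subunit was not measured.

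**Figure D1:**
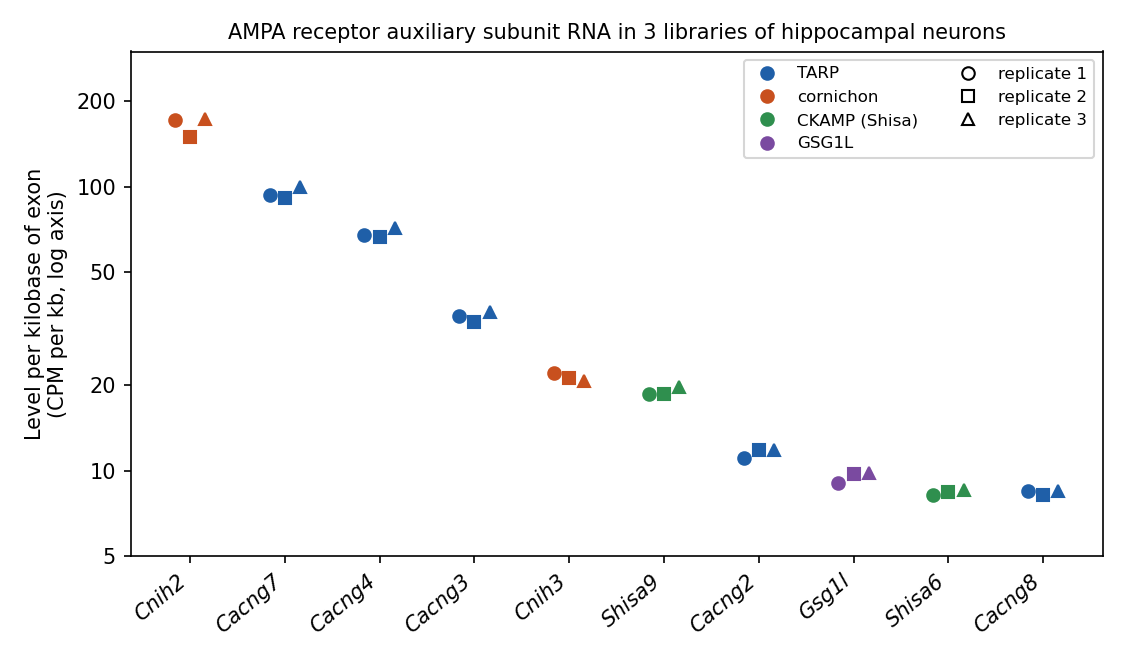
Level of each AMPA receptor auxiliary subunit gene in CPM per kilobase of exon (log axis), one symbol per library, genes ordered by mean and coloured by family. The libraries of a gene lie close together; Cnih2 is at 165 ± 13.1, and Gsg1l, Shisa6 and Cacng8 lie below 10.

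Among the 5 listed TARP genes, Cacng7 and Cacng4 were the highest and Cacng8 the lowest. Cacng7, a type II TARP first known as a calcium channel gamma subunit, had deposited log2 values of 12.07, 12.06 and 12.13, from 4295, 4154 and 4599 reads in replicates 1, 2 and 3. Its level was 94.8 ± 4.45 CPM per kilobase, above that of 97.4% of detected protein-coding genes. Cacng4, a type I TARP of the Ib kind that is prominent in the developing brain and also found in glia, had log2 values of 12.15, 12.15 and 12.20 from 4544, 4454 and 4832 reads. At 68.6 ± 2.58 CPM per kilobase it lay above 95.8% of these genes. Replicate 3 was highest for both genes. Together Cacng7 and Cacng4 made up 74.8% ± 0.26 of the summed level of the 5 TARP genes.

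The type Ia genes lay lower. Cacng3, the closest relative of stargazin and a TARP of cortex and hippocampus, had log2 values of 10.83, 10.81 and 10.86 from 1834, 1739 and 1910 reads, or 35.03 ± 1.46 CPM per kilobase. Cacng2, which encodes stargazin, the TARP missing in the ataxic stargazer mouse, had log2 values of 10.20, 10.24 and 10.24 from 1148, 1215 and 1233 reads, or 11.6 ± 0.42. Replicate 2 was lowest for Cacng3 and replicate 1 for Cacng2, and the values per kilobase of these genes did not overlap. Within a library Cacng2 lay below Cacng3 at −1.56 ± 0.08 log2 units per kilobase of exon (SD in recovered reads), in 3 of 3 libraries. The size of this gap depends on length, since per kilobase of coding sequence it was −0.64. Against Cacng7, Cacng2 stood at −2.98 ± 0.07 log2 units, or −2.08 per kilobase of coding sequence.

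Cacng8, the TARP that is enriched in adult hippocampus, was the lowest of the 5 listed TARP genes. Its log2 values were 8.53, 8.53 and 8.53, from 373, 360 and 376 reads, and its level was 8.39 ± 0.15 CPM per kilobase, above 56.7% of detected protein-coding genes. Its libraries were the closest together of the 10 genes. It lay below Cacng2 at −0.44 ± 0.065 log2 units, below Cacng4, its type Ib partner, at −2.96 ± 0.04, and below Cacng7 at −3.42 ± 0.05. Per kilobase of coding sequence these ratios were −2.05, −3.97 and −4.13, and per kilobase of the longest transcript the first was −0.15. The annotated exons of Cacng8 hold a 3′ untranslated region of at most 371 bases, the shortest of the 10 genes, whose others run from 547 bases (Cacng3) to 5747 (Shisa6), and the RefSeq gene ends 618 bases beyond the GENCODE gene. The annotation behind the deposited values is not named in the labels, and the part of these ends in the low value of Cacng8 was not tested.

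Cacng7 and Cacng8 are neighbours, transcribed in the same direction on chromosome 7 (3332955 to 3368221 and 3390683 to 3415648, GRCm38) with 22461 bases between them, and Cacng6 follows 8546 bases further on (3424195 to 3435667). Cacng6, a gamma subunit of calcium channels in muscle that is not counted among the TARPs, had 0, 5 and 8 reads. The long noncoding gene Gm44257 in the gap between Cacng7 and Cacng8, on the other strand, had 7, 4 and 9 reads. Thus the 3 gamma genes of this cluster ran from 94.8 over 8.39 to 0.12 ± 0.11 CPM per kilobase. On chromosome 11, Cacng4 (107732357 to 107794557) lies between Cacng5 and Cacng1, all on the minus strand. Cacng5, the other type II TARP, had 155, 180 and 159 reads and a level of 2.29 ± 0.20 CPM per kilobase, and Cacng1, the gamma subunit of the skeletal muscle calcium channel, had 9, 7 and 8 reads, or 0.34 ± 0.04. In each cluster the highest and the lowest gene differed in every library without overlap.

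**Figure D2:**
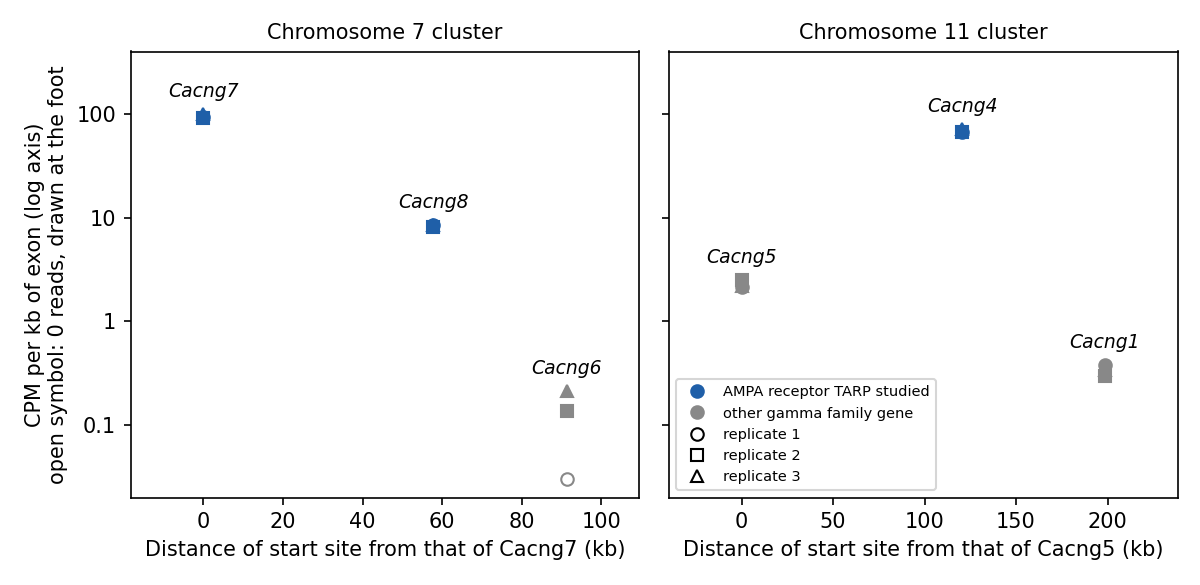
Level of the 6 clustered gamma family genes (CPM per kilobase of exon, log axis) against the distance of their start sites from that of Cacng7 (left) or Cacng5 (right) in kilobases, one symbol per library. Cacng7 at 94.8 and Cacng4 at 68.6 stand above neighbours at 0.12 to 8.39.

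Of the cornichons, Cnih2 was far above Cnih3. Cnih2 had deposited log2 values of 12.08, 11.98 and 12.09, from 4442, 3845 and 4479 reads. Replicate 2 was low and the others were alike. With 165 ± 13.1 CPM per kilobase it was the highest of the 10 genes, above 98.7% of detected protein-coding genes, and made up 37.4% ± 1.44 of their summed level. Cnih3, its close relative, had log2 values of 10.12, 10.10 and 10.10 from 1142, 1090 and 1078 reads, or 21.4 ± 0.69 CPM per kilobase. Cnih2 exceeded Cnih3 by 2.92 ± 0.12 log2 units, a 7.58-fold ratio, which was 4.48-fold per kilobase of coding sequence. Set against the hippocampal TARP, Cnih2 exceeded Cacng8 by 4.22 ± 0.09 log2 units, or by 4.88 per kilobase of coding sequence. Both cornichons outside the list were also expressed: Cnih1, a cargo receptor of the secretory pathway, reached 79.3 ± 2.68 CPM per kilobase and Cnih4 14.4 ± 0.21.

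The promoters of the cornichons are printed because the pair is similar in protein and unequal in RNA, and because their RefSeq start sites are also those of GENCODE. Each runs from 250 bases before the start to 50 after it (RefSeq, GRCm38.p6), with every CG dinucleotide in capitals; that of Cnih2 is chr19:5098472-5098771 on the minus strand and that of Cnih3 chr1:181352378-181352677 on the plus strand.
Cnih2: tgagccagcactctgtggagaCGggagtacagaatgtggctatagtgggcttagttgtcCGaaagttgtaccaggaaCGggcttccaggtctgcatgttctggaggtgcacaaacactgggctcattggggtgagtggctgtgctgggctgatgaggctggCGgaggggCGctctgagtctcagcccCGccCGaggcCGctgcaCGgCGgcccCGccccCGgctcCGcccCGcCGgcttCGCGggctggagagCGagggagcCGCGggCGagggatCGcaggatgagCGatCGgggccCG
Cnih3: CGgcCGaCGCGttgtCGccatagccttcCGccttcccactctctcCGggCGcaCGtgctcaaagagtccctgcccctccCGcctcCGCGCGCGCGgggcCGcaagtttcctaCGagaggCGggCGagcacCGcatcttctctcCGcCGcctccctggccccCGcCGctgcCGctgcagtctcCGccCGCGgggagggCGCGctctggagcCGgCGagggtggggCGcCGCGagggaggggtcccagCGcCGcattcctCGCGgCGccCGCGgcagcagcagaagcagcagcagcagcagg
The Cnih2 promoter held 25 CG dinucleotides and that of the lower gene, Cnih3, held 42, against a median of 7 over 32851 promoters of the same length. Both held the letters GGGCGG on one or other strand, as did 35.7% of all promoters, and neither held TATAAA, found in 13.6%. RefSeq windows matched 6 of the 10 genes, and the start site was that of GENCODE in 2 of these.

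Shisa9 lay in the middle of the 10 genes and Shisa6 among the lowest. Shisa9, which encodes a CKAMP protein prominent in the dentate gyrus, had log2 values of 10.86, 10.86 and 10.89 from 1841, 1833 and 1949 reads, or 19.03 ± 0.57 CPM per kilobase. Shisa6, whose product keeps AMPA receptors at the postsynaptic site, had log2 values of 10.19, 10.20 and 10.21 from 1151, 1176 and 1203 reads, or 8.41 ± 0.17. Both genes were highest in replicate 3, with no overlap of their levels per kilobase. The ratio of Shisa9 over Shisa6 was 1.13 ± 0.03 log2 units, with Shisa9 higher in 3 of 3 libraries. It was 0.67 without length scaling and 1.37 per kilobase of the longest transcript. Of the remaining CKAMP genes, Shisa7 had 2393, 2402 and 2701 reads and a level of 20.03 ± 1.31 CPM per kilobase, and Shisa8 only 49, 37 and 45 reads.

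Gsg1l, a distant relative of the TARPs that slows recovery from desensitization and limits AMPA currents, had log2 values of 9.44, 9.47 and 9.47 from 667, 715 and 729 reads. Replicate 1 was lowest. Its level of 9.55 ± 0.43 CPM per kilobase lay below that of Cacng2 at −0.27 ± 0.01 log2 units, in 3 of 3 libraries. This gap depends on length, at −0.76 both per kilobase of coding sequence and without length scaling. Shisa6 lay just below Gsg1l, at −0.17 ± 0.04, but above it, at 0.73, without length scaling. Both paralogs of Gsg1l were scarce, Gsg1 with 2, 3 and 7 reads and Gsg1l2 with 0 in each library. A gene with 0 reads could be present in a library at up to 0.159 to 0.161 CPM, the value of 3 reads, by counting error alone.

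From highest to lowest level per kilobase of exon the order was Cnih2, Cacng7, Cacng4, Cacng3, Cnih3, Shisa9, Cacng2, Gsg1l, Shisa6 and Cacng8. Neighbours in this order were taken to differ beyond their spread where the within-library difference had one sign in 3 of 3 libraries and exceeded 2 SD, in deposited values and in recovered reads. This held for 7 of 9 neighbours and for 43 of all 45 pairs. Cnih3 and Shisa9, at 0.16 ± 0.08 log2 units, and Shisa6 and Cacng8, at 0.0028 ± 0.04, did not differ beyond their spread. The count of neighbours that differed was 5 without length scaling and 6 without replicate 2. Lengths set part of the order: per kilobase of the longest transcript 3 of 45 pairs changed places, with Shisa6 lowest, and without length scaling 8 did, with Cacng4 highest. Cacng2 shares 323 exon bases with an antisense gene and Cnih2 14 with Yif1a, and the sources used here do not say whether reads were counted by strand. Cacng8 shares 91 exon bases with the microRNA gene Gm23450, which had 0 reads and lies on the same strand, so counting by strand would not part them. These overlaps are small beside exon lengths of 5510, 1369 and 2345 bases, and their part in the levels was not tested.

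**Figure D3:**
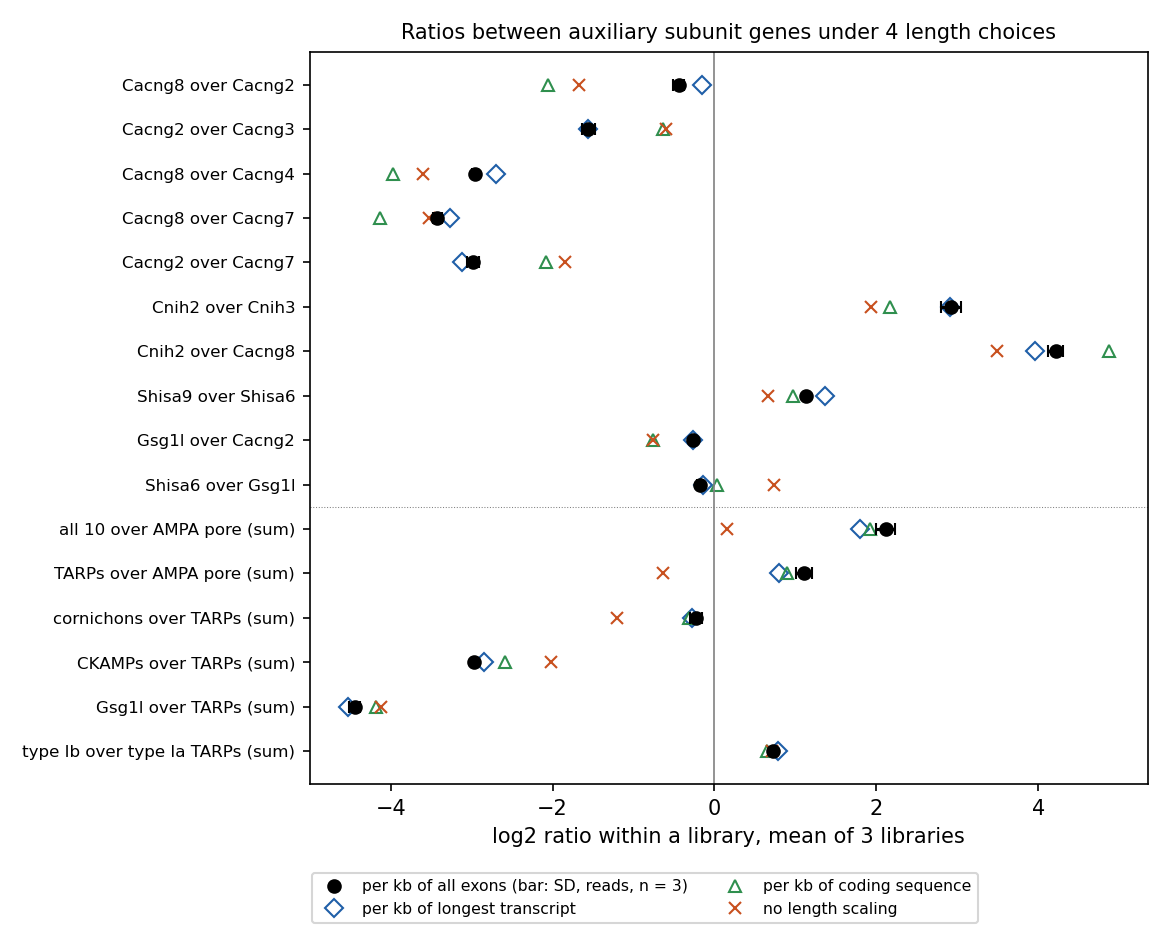
log2 ratios between auxiliary subunit genes and between their summed classes, as means of 3 libraries per kilobase of all exons (black, SD of recovered reads), with open symbols and crosses for the other length choices. Ratios such as Cnih2 over Cnih3 (2.92) keep their side of 0 throughout, whereas Shisa6 over Gsg1l and TARPs over the AMPA pore cross it without length scaling, the first also per kilobase of coding sequence.

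Summed per kilobase, RNA of the 10 auxiliary genes exceeded that of the 4 pore genes. The 10 auxiliary genes summed to 447, 420 and 460 CPM per kilobase in replicates 1, 2 and 3, against 98.4, 106 and 100.2 for Gria1 to Gria4. The log2 ratio was 2.12 ± 0.12, a 4.34-fold excess of 10 genes over 4, but 0.16 without length scaling and 0.38 as the mean of log2 levels, in which the number of genes does not count. The median gene lay lower among the auxiliary genes, at 20.2 CPM per kilobase, against 26.95 among the pore genes. The 5 TARPs alone exceeded the pore genes by 1.10 ± 0.10 log2 units, or 2.15-fold, and by 0.58 as the mean of log2 levels. Gria2 has 15548 bases of annotated exon and 10371 in its longest transcript; per kilobase of the longest transcript the excess of the TARPs was 1.74-fold, and without length scaling they lay below the pore genes at −0.64. Gria1 stood at 41.2 ± 1.98, Gria2 at 40.02 ± 1.66, Gria4 at 13.9 ± 0.87 and Gria3 at 6.44 ± 0.16 CPM per kilobase, so that Cnih2, Cacng7 and Cacng4 each lay above every pore gene on this scale.

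Within the auxiliary genes, the 5 TARPs made up 49.4% ± 1.00 of the summed level, the cornichons 42.2% ± 1.37, the Shisa genes 6.21% ± 0.23 and Gsg1l 2.16% ± 0.15. The summed level of the cornichons lay below that of the TARPs at −0.23 ± 0.08 log2 units, but as the mean of log2 levels the cornichons lay higher at 0.99, and without length scaling the summed ratio was −1.20. The Shisa genes lay below the TARPs at −2.97 ± 0.03 (−2.01 without length scaling) and Gsg1l at −4.45 ± 0.07, in sums over 2 genes or 1 gene against 5. As means of log2 levels these ratios were −1.20 and −1.59. The summed type Ib TARPs exceeded type Ia by 0.72 ± 0.006, and by 0.26 as the mean of log2 levels. Of the type Ib genes only Cacng4 lay above the type Ia genes, and Cacng8 lay below both. For each of 10 gene ratios and 6 class ratios the 3 libraries shared a sign, and the two-sided exact sign-flip permutation p was 0.25 (adjusted 0.25). That is the smallest p 3 libraries allow, which is above 0.05 by design.

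Auxiliary subunit RNA differed by 1.03-fold to 1.15-fold between libraries given the same medium. A Pearson chi-square test on recovered reads covered 15131 genes that averaged at least 10 reads, all 10 auxiliary genes among them. Cnih2, Cacng7 and Cacng4 differed by more than counting error (adjusted p = 8.94e-10, 9.48e-04 and 0.0113, Benjamini-Hochberg over all genes tested), that is 3 of 10, where 8.62% of all genes were called; 4 of 10 had an unadjusted p under 0.05, against 20.7% of all genes. These are the 3 genes with most reads, for which counting error is smallest. Against the dispersion trend fitted over all genes, which called 0.330% of them, 0 of 10 passed, and 1 of 10, Cnih2, had an unadjusted p under 0.05 (0.0048; adjusted p = 0.354), against 6.20% of all genes. The range between libraries was 1.15-fold for Cnih2, 1.10-fold for Cacng7, 1.07-fold for Cacng4 and 1.03-fold to 1.10-fold for the other genes. The median coefficient of variation was 4.06% over the 10 genes and 5.37% over all genes tested.

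**Figure D4:**
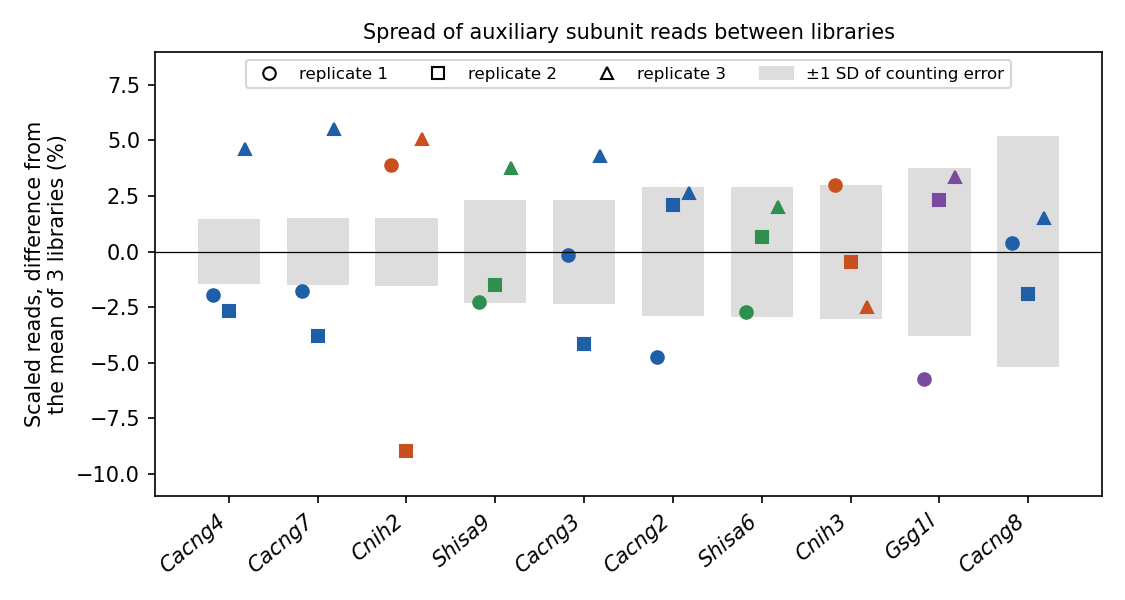
Reads of each auxiliary subunit gene, scaled by size factors, as the percent difference from the mean of 3 libraries, one symbol per library; grey bars show 1 SD of counting error either side of 0. Replicate 2 of Cnih2 lies lowest, and the triangles of replicate 3 stand highest for 9 of 10 genes.

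Replicate 3 was the highest library for 9 of 10 auxiliary genes, Cnih3 being the exception, whereas 31.2% of all genes tested were highest there. All 5 TARPs were highest in replicate 3, and all 4 pore genes were highest in replicate 2. Gria2, for instance, had 11517, 12171 and 11372 reads in replicates 1, 2 and 3. Of the neuronal markers, 4 of 6 excitatory, 1 of 6 inhibitory and 3 of 8 pan-neuronal genes were highest in replicate 3. Their reads summed to 19244, 18804 and 19928 for the excitatory list, 16092, 15610 and 16026 for the inhibitory list, and 121944, 120576 and 121829 for the pan-neuronal list. Of the glial markers, 0 of 6 astrocyte genes (29488, 30076 and 29729 reads) and 1 of 7 oligodendrocyte lineage genes (5577, 5269 and 5630 reads) were highest there. The microglial list had 36, 50 and 64 reads and 5 of 6 genes highest in replicate 3, and the endothelial list 19, 17 and 19 reads and 1 of 4. The excitatory and oligodendrocyte lineage sums ran as those of the auxiliary genes did, lowest in replicate 2 and highest in replicate 3. The sums of the other marker lists ran in other orders. The part of cell types in the spread of the auxiliary genes was not tested. The GC content of the longest transcript was 62.3% for Cnih2, 58.1% for Cacng7 and 54.4% for Cacng4, against a median of 49.6% over the genes tested. Genes not called were in the same range: Cacng8 at 65.1%, the highest of the 10, Gsg1l at 56.9% and Cacng3 at 54.6%. The part of GC content in the calls was not tested. Cacng8, Gsg1l and Cacng3 have fewer reads, so a like spread is less readily called in them. Their counting error was 5.20%, 3.77% and 2.34% of the mean, against 1.53% for Cnih2, 1.52% for Cacng7 and 1.47% for Cacng4. The coefficient of variation of Cacng8, 1.73%, lay below its counting error. With size factors fitted within bins of GC content, an alternative chosen after seeing the data, 0 of the 10 differed by more than counting error. There 758 of 14615 genes tested were called. Without replicate 2 the count was 0 as well, where 334 of 15164 genes were called. Without replicate 3 it was 1, Cnih2, where 835 of 15199 genes were called. Without replicate 1 the same 3 genes were called, where 1187 of 15165 genes were called. Each of these settings called fewer of all genes than the main one, with 1304 of 15131. The same 3 genes were also called with a minimum mean of 50 reads, with no minimum and with scaling by total reads.

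Other genes of the AMPA receptor complex were mostly expressed. All 6 genes of receptor assembly in the endoplasmic reticulum were detected, led by Abhd12, a lipid hydrolase, at 170.8 ± 3.42 CPM, then Frrs1l, which is needed for the biogenesis of AMPA receptors, at 109 ± 2.78 and the lipid phosphatase gene Sacm1l at 77.5 ± 1.39. Of 11 further constituents of the complex 10 were detected, led by the secreted noelins Olfm1 (411 ± 16.5 CPM) and Olfm2 (159 ± 11.6) and by the small GTPase gene Rap2b (39.9 ± 0.28). Prrt2 had 1, 2 and 5 reads, a value that is uncertain because 2918 of its 3159 exon bases are shared with another annotated gene on the same strand, Gm42742.

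Genes of the list of AMPA receptor scaffolds, not all of which encode scaffolds, were all detected, 10 of 10. They were led by Dlg2 (356 ± 9.43 CPM), Dlg4 (295 ± 18.7) and the fusion ATPase gene Nsf (220.5 ± 2.85). All 4 CaMKII genes, whose kinase phosphorylates the tail of TARPs, were detected, led by Camk2b at 438 ± 10.4, Camk2a at 191 ± 3.56 and Camk2g at 114 ± 6.09. The 3 neuronal pentraxins, which cluster AMPA receptors from outside the cell, were detected with Nptxr at 426 ± 27.2 and Nptx1 and Nptx2 at 17.5 ± 0.95 and 4.90 ± 0.10. Neto2 and Neto1, the auxiliary subunits of kainate receptors, reached 333 ± 3.81 and 46.0 ± 2.31 CPM. Of the 9 family paralogs outside the list 5 were detected, with Cacng1, Cacng6, Gsg1 and Gsg1l2 below 1 CPM. The median level was 20.2 CPM per kilobase over the 10 auxiliary genes, against 0.84 over these paralogs, 26.95 over the pore genes and 9.96 over the scaffolds.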

How the data were processed

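For each library the authors deposited a list of gene symbols with a log2 value. FastQC, HISAT2, featureCounts and DESeq2, with GRCm38, are named in the submitters' processing notes, and no version or setting is stated there. These look like regularized log values, a scale on which libraries lie closer together than their reads do. Inverting such a fit (negative binomial with a ridge penalty) gave whole reads: 99.9% of 77088 values lay 0.1 or less from a whole number (20% by chance), and those of the 10 genes 0.0099 or less. Levels in CPM come from these reads. Detection, ratios and the percent of detected protein-coding genes lying below a gene use 2 raised to the deposited value, divided by its sum over genes. In ratios 0.5 was added to each level per kilobase, and their printed SD is that in recovered reads.

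Gene rows were matched by symbol to GENCODE M21 (45296 of 47593), which gave coordinates and lengths. Variation was tested with a Pearson chi-square test on 2 degrees of freedom with median-of-ratios size factors, using Python 3.11.15 with SciPy 1.17.1. Only the test against the dispersion trend was checked on simulated reads, with changes larger than those between libraries in the 10 genes. The test against counting error was not checked in this way. The deposited log2 values cannot enter count models. Floors cover counting error only: no molecular identifiers are recorded, so reads may repeat a molecule. The members, gene lists, pairs and tests were chosen with earlier results of these data known. Named genes were all 10 members, the pore genes, the family paralogs, and of each further list the 3 highest and those below 1 CPM; other genes were named after their values were seen. Protein sequence records were not used, and residues were read from translated coding sequences.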

Additional observations from a re-analysis of the deposited data

How the results depend on the processing

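Of 210 alternative values, 202 were counted as keeping their direction or size, 4 moved and 4 reversed. Ratios that have 1 sign in 3 of 3 libraries cannot reverse when a library is left out. Sizes among the 202 could still change. The 10 genes over the AMPA pore went from 2.12 to 0.16 without length scaling, and genes beyond the dispersion trend from 50 to 71 with bins of GC content. Neighbours that differed beyond their spread went from 7 to 5 without length scaling. The reversals were the following. Without length scaling Shisa6 over Gsg1l became 0.73 and TARPs over the AMPA pore −0.64; per kilobase of coding sequence from GENCODE, added after seeing the data, Shisa6 over Gsg1l became 0.036; and as the mean of log2 levels cornichons over TARPs became 0.99. The first 3 follow from the lengths used and the last from lists of 2 and 5 genes. Genes differing between libraries beyond the dispersion trend, 50 in all, numbered 1304 against counting error alone and 6 to 30 without 1 replicate, fewest without replicate 1; 0 of the auxiliary genes was among them against the trend in any of these settings. The count of 10 members detected did not change. Coding length from RefSeq proteins was not run. No pairing of treatments was possible because the libraries form a single group, and ratios between genes were taken within each library. Genes with few reads are limited by depth: a gene at 0 reads could lie at up to 0.159 to 0.161 CPM.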
